A study of Arapaima gigas with 24 samples.

Results

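Testis was compared with brain in 3 male Arapaima gigas (the pirarucu, an air-breathing Amazonian fish of great size), pairing the 2 tissues of each fish, over all 22016 gene models of the deposited count table. Of the 24 libraries of the series, 12 came from males, 4 from each fish, and they were chosen by the sex and tissue in the labels alone. The 2 libraries of a fish and tissue, called run 1 and run 2 here by a title prefix whose meaning the labels do not give, were summed, which gave 3 testis and 3 male brain samples. The remaining 12 libraries, from ovary and brain of 3 females, served to ask where males differed. Their levels also helped to rank or group gene models in some descriptions of the males, as stated there. The study asked which genes differ between the sexes in gonad and brain, and its design also gives both tissues of every fish.

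All fish came from a farm in their reproductive period, with an age of 4 years or more and a length of 100 to 120 cm. Males were recognised by spermatozoa in the testis and females by primary oocytes in the ovary. The labels name neither a strain nor a brain region. RNA integrity numbers lay between 8 and 8.5, poly(A) RNA was used, and reads were 50 nt long on the SOLiD platform, per the labels.

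In vertebrates the testis makes sperm from germ cells that pass through stem cell, meiotic and spermatid stages, nursed by Sertoli cells, while Leydig cells between the tubules make steroid hormones. Germ cells read many genes that are silent in most other organs. The brain is built of neurons, glia and vessel cells and carries its own set of transcripts for synapses, ion channels and neuropeptides. Hormones of the brain and pituitary drive the testis.

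The table pairs its gene model identifiers with no gene names, so the levels of germ cell, Sertoli, Leydig, neuron and glia markers were not examined and the tissue labels were not checked against them. Gene lists prepared for these cell types were not run for the same reason. Each value of testis against brain therefore rests on the tissue labels alone, and whether the counts carry the difference known between these organs was not examined. Over all gene models, testes 1 and 2 each correlated best with the brain of the same fish and not with another testis. For testis 1 the margin was small, r = 0.9776 with its brain against 0.9771 with testis 2. Testis 3 went the other way, best with testis 1 (0.961) and least with its own brain (0.945). Gene models are described here by their values.

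Summed totals were 8486409, 11781020 and 8893154 counts in testes 1, 2 and 3, and 10587561, 10250653 and 10430277 counts in the brains of males 1, 2 and 3. Gene models had a median of 208, 336 and 207 counts in the testes, and of 304, 298 and 285 counts in the brains. Of the 22016 gene models, 22011 had at least 1 count in each of the 12 male libraries, and 0 were at 0 in all of them. The mean level over the 6 samples had a median of 27.1 CPM, counts scaled to a common library total with edgeR's TMM factors. Its 5th and 95th percentiles were 5.70 and 125 CPM.

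Testis 3 stood apart from the other samples. Its log2 CPM correlated with the other 5 male samples, taken across gene models that are no independent replicates, at r = 0.945 to 0.961, lowest with the brain of the same fish. Testes 1 and 2 correlated at 0.977, no higher than testis 1 with its own brain (0.978) or testis 2 with its own brain (0.984). The 3 pairs of brains gave 0.978 to 0.984. Between testis 3 and testis 2, 940 gene models were at least 2-fold apart, and between testis 3 and testis 1, 664. Between testes 1 and 2 the number was 247, and between brains it was 137 to 221. Results over all 3 males were therefore also taken without male 3.

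Of the 22016 gene models, 23 lay at least 1.5-fold to the same side in all 3 males, 21 higher and 2 lower in testis. Where the summed sample and both runs of a fish had to be 2-fold apart, 809 were higher and 175 lower in testis in at least 1 male, nearly all of them in 1 male alone. In the paired edgeR quasi-likelihood test 0 of 22015 gene models (0%) passed a Benjamini-Hochberg adjusted p of 0.05, the smallest adjusted p being 0.890. At an unadjusted p under 0.05 there were 725 (3.29%), 430 of them higher (1.95%) and 295 lower (1.34%) in testis. Were no gene model different, a share of 0.05 would on average fall under this limit. In bulk tissue, fewer cells of a type and less RNA per cell cannot be told apart. limma-voom with the fish as a block also called 0, with 686 at an unadjusted p under 0.05.

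The paired DESeq2 fit called 22 gene models at an adjusted p under 0.05, 19 higher and 3 lower in testis. They were 0.0999% of the 22015 in the fit, of which 6403 had an undefined adjusted p and could not be called. All 22 lay on the called side in each of the 3 fish and in both runs of each fish. Over all gene models, 7.11% lay on 1 side in all of these. These are the samples that chose the 22, so the count describes them and supports nothing. Among the 19 the DESeq2 log2 fold change ran from 0.61 to 1.59 with a median of 0.95, and mean levels from 26.7 to 595.5 CPM. The 3 lower ones had DESeq2 log2 fold changes of -1.38 to -0.63. In 16 of the 19 and in all 3 of the lower ones the testes and brains did not overlap, against 10.2% of all gene models, again in the samples that chose them. Without the fish as a block DESeq2 called 36, 33 higher and 3 lower in testis, and 18 gene models were called by both fits. Paired DESeq2 called 4 when male 1 was left out, 90 when male 2 was, and 35 when male 3 was.

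In the paired edgeR test the number at an unadjusted p under 0.05 was 290 when male 1 was left out, 1150 when male 2 was, and 1101 when male 3 was. The adjusted threshold was passed by 0 gene models in each of these refits. The direction of these differences changed with the scaling. With upper-quartile scaling 271 were higher and 512 lower in testis. With total counts alone 185 were higher and 1815 lower, and the median fitted log2 fold change over the table was -0.17, against 0.01 under TMM.

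**Figure D1:**
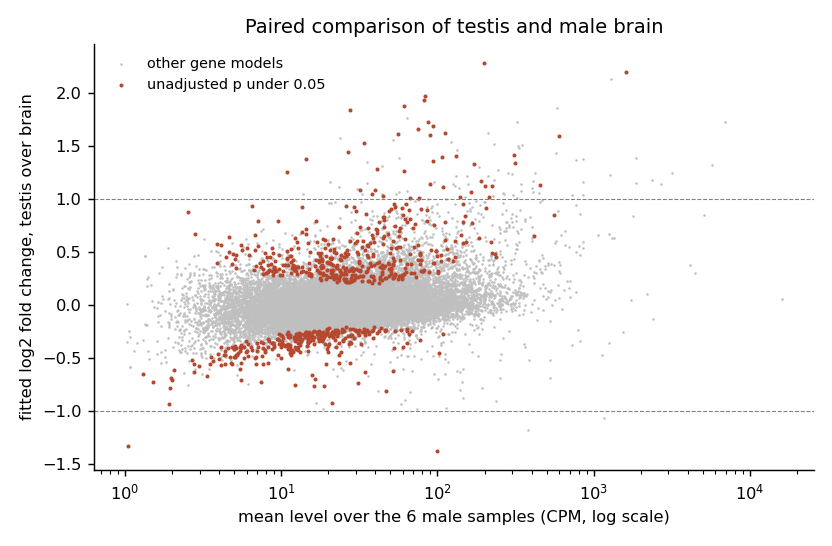
Fitted log2 fold change of testis over male brain (vertical axis) by mean level over the 6 male samples in CPM (horizontal axis, log scale) for 22015 gene models. Grey points are other gene models, red points the 725 at an unadjusted p under 0.05, and dashed lines mark 2-fold. Most points lie within 2-fold, and more lie beyond 2-fold on the higher side than on the lower.

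Under TMM scaling the fit bounded the shared difference of most gene models. The shares inside a limit given here were computed under this scaling only. With total counts alone the median SE was 0.16 and the median fitted log2 fold change -0.17. The median absolute fitted log2 fold change was 0.10, with a median SE of 0.12, and the 95% interval reached a median of 0.30 to either side of the estimate. For 20663 gene models (93.9%) the 95% interval lay within 2-fold in either direction, and for 17216 (78.3%) within 1.5-fold. These intervals hold for each gene model on its own and rest on edgeR's moderated spread of 3 pairs, with a common biological coefficient of variation of 0.162. Fitted folds of at least 2 were found for 108 gene models on the higher side and 4 on the lower side. The 95% interval lay within 2-fold for 90.0% of gene models without male 1, 89.0% without male 2 and 96.9% without male 3. Fitted folds of at least 2 numbered 176 on the higher and 36 on the lower side without male 1, 302 and 33 without male 2, and 109 and 12 without male 3. The highest fitted log2 fold change was 2.27 and the lowest -1.37.

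How far the 3 males shared a difference was then described gene model by gene model, with the log2 ratio of testis to brain of each fish, log2(CPM + 0.5) in each sample. The sign was the same in all 3 fish for 5710 gene models (25.9%), higher in testis in 2824 and lower in 2886. Signs at random would agree in 3 fish with a probability of 0.25, near the share found. When both runs of each fish also had to show it, 826 and 740 were counted. At 1.5-fold or more in every fish, 21 were higher and 2 lower, together 0.104% of gene models. Of the 21, 18 had testes and brains that did not overlap (10.2% of all gene models). At an unadjusted edgeR p under 0.05 were 20 (3.29% of those tested). Among the paired DESeq2 calls were 11 (0.0999% of all in that fit, with or without a defined adjusted p). These counts use the values by which the 21 were chosen and are a description of them. With only 2 fish to satisfy, the count of 23 was 43 without male 1, 189 without male 2 and 96 without male 3.

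A single gene model was at least 2-fold higher in testis in all 3 males. It had 306.3, 1216 and 1192 CPM in testes 1, 2 and 3, against 126.0, 443.3 and 288.7 CPM in the brains of males 1, 2 and 3. The testis of male 1 lay below the brain of male 2, so that the tissues overlapped although every fish had a fold of 2.42, 2.74 or 4.12. Its fitted log2 fold change was 1.59 with an SE of 0.30, an edgeR adjusted p of 0.890 and a paired DESeq2 adjusted p of 8.64e-05. In females it had 1238, 1201 and 99.3 CPM in ovaries 1, 2 and 3, against 137.1, 242.2 and 613.5 CPM in the brains of females 1, 2 and 3, higher in the ovary of females 1 and 2 and lower in that of female 3.

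Taking samples without their pairs, the lowest testis lay above the highest brain in 1077 gene models (4.89%) and the highest testis below the lowest brain in 1178 (5.35%), together 10.2%. Were the 6 samples in random order, the tissues would separate with a probability of 0.1, near the share found. With only 2 fish of each tissue to separate, 3068 were above and 3094 below without male 1, 4916 and 4677 without male 2, and 3577 and 3339 without male 3. Together these were 28.0%, 43.6% and 31.4% of gene models. Samples in random order separate more often with 2 of each tissue than with 3. The probability of 0.1 therefore does not apply to these shares, and their rise over 10.2% alone cannot be read as clearer separation. Among the 3, the share without male 2 (43.6%) lay above those without male 1 (28.0%) and male 3 (31.4%). Whether it exceeded what random order gives with 2 of each tissue was not tested.

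The ratios of 1 fish were partly repeatable between its runs and were hardly shared between fish. The 2 runs gave the same sign for 60.4%, 58.9% and 72.4% of gene models in males 1, 2 and 3. Across the 22016 gene models the log2 ratio of testis to brain in run 1 correlated with that in run 2 at r = 0.54 in male 1, 0.46 in male 2 and 0.78 in male 3. The runs share a fish and a tissue, and the labels do not say at which step they were divided. Between fish r was 0.08 for males 1 and 2, 0.16 for males 1 and 3 and -0.15 for males 2 and 3. A higher group, where counting error weighs less, lay above the median of a mean over male and female levels. That mean also took in the fitted female log2 fold change. In this group the 3 values were 0.09, 0.15 and -0.19. These correlations are across gene models that share libraries, depth and scaling, and describe these fish only.

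**Figure D2:**
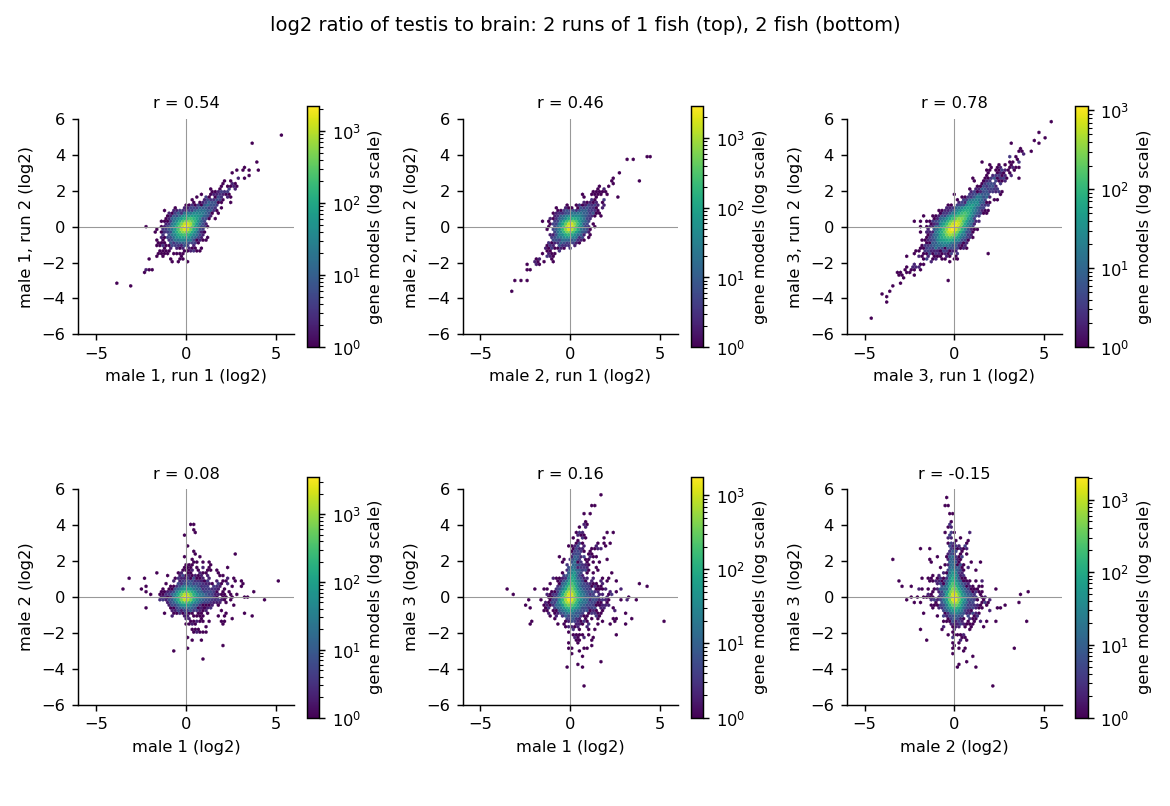
Log2 ratio of testis to brain for 22016 gene models, coloured by the number of gene models per hexagon on a log scale. The top row sets run 1 (horizontal) against run 2 (vertical) of males 1, 2 and 3, and the bottom row sets 1 male against another. The clouds stretch along the diagonal in the top row, with r of 0.54, 0.46 and 0.78, and along the axes in the bottom row, with r of 0.08, 0.16 and -0.15.

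Within a fish, large differences were counted where the summed sample and both runs were at least 2-fold apart. In male 1, 189 gene models were higher and 25 lower in testis. In male 2 the numbers were 65 and 40, and in male 3 they were 597 and 113. Male 3, whose testis stood apart, thus had 3.22% of gene models at least 2-fold apart, against 0.972% in male 1 and 0.477% in male 2. The highest ratio of testis to brain was 36.4-fold in male 1, 17.4-fold in male 2 and 49.5-fold in male 3.

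The 2-fold lists of the 3 fish had few gene models in common. Over the 3 males 809 gene models were at least 2-fold higher in testis in at least 1 fish, 768 of them in 1 fish alone, 40 in 2 and 1 in all 3. Of 175 that were at least 2-fold lower, 172 were so in 1 fish, 3 in 2 and 0 in all 3. Over all gene models 0.972%, 0.477% and 3.22% were 2-fold apart in either direction in males 1, 2 and 3. Males 1 and 3 shared 30 of the higher ones, 15.9% of the list of male 1 and 5.03% of that of male 3. Males 1 and 2 shared 12, 6.35% and 18.5% of their lists. Both pairs shared more than the shares over all gene models, although those count both directions and these lists only the higher one. Males 2 and 3 shared 1, 1.54% and 0.168% of their lists, too few to set against those shares. Overlap in the opposite direction was found too. Of the 189 higher ones of male 1, 16 were at least 2-fold lower in testis in male 3. In male 2, 9 were. Of the 65 higher ones of male 2, 8 were that much lower in male 3 and 2 in male 1. Of the 597 higher ones of male 3, 6 were so in male 2 and 0 in male 1. Taken as shares of these lists, all of these but the 0 lay above the other fish's share over all gene models. The shared higher gene models alone therefore do not show that the fish agreed in direction.

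The 597 gene models of male 3 had a median log2 ratio of 1.51 in that fish, by which they were chosen. Their median log2 ratio was 0.23 in male 1 and -0.08 in male 2, where the medians over all gene models were 0.0056 and -0.00089. Their median level was 138.5 CPM in testis 3, 61.7 CPM in testis 1 and 47.9 CPM in testis 2, against 44.8 CPM in brain 3, 50.9 CPM in brain 1 and 49.7 CPM in brain 2. They took up 20.3% of the counts of testis 3 and 4.69% of those of brain 3. The 189 gene models of male 1 had medians of 1.52 in that fish, 0.13 in male 2 and 0.03 in male 3, and the 65 of male 2 had 1.48 in that fish, 0.38 in male 1 and -0.28 in male 3.

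**Figure D3:**
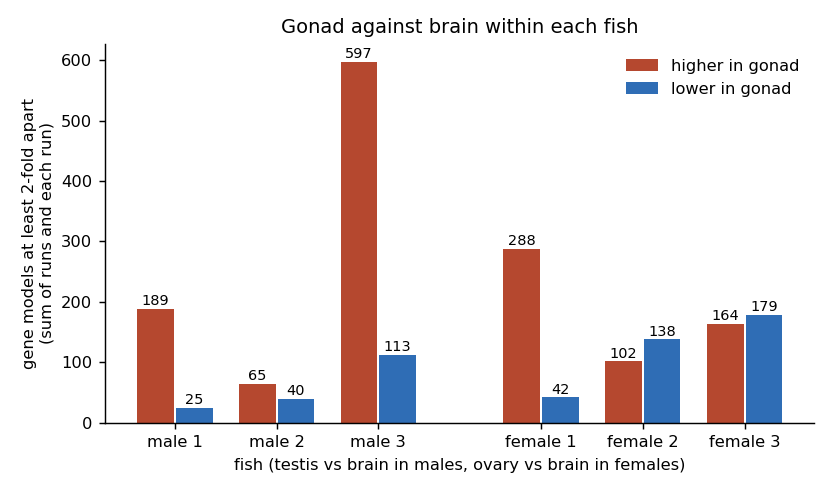
Number of gene models at least 2-fold higher (red) or lower (blue) in gonad than in brain within each fish, counted where the summed sample and both runs passed. Males are on the left and females on the right. Male 3 has the tallest bar, 597, and male 2 the shortest higher bar, 65.

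The gene model with the highest ratio of testis to brain in each fish is described next. Each was chosen by that ratio, so its high level in that testis follows from the choice and supports nothing. The one chosen for male 1 had 29231 CPM in testis 1, 1691 CPM in testis 2 and 467.7 CPM in testis 3, against 801.6, 929.4 and 1145 CPM in brains 1, 2 and 3. The one chosen for male 2 had 575.8 CPM in testis 2, against 27.7 to 32.6 CPM in the 3 brains, with 37.7 CPM in testis 1 and 35.7 CPM in testis 3. The one chosen for male 3 had 6848 CPM in testis 3, 385.2 CPM in testis 1 and 129.1 CPM in testis 2, against 113.4 to 178.0 CPM in the brains. In each case the testis by which it was chosen was far above all 5 other male samples.

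Gene models whose level exceeded all other 5 male samples by 2-fold or more numbered 64 in testis 1, 26 in testis 2 and 389 in testis 3, against 11, 21 and 51 in brains 1, 2 and 3. In the testes all 479 were above every other male library in both runs, as were 11 of 11, 21 of 21 and 50 of 51 in brains 1, 2 and 3. The same runs make up the summed samples that chose these gene models, so this is a description of them only. These gene models held 7.63%, 2.40% and 17.0% of the counts of testes 1, 2 and 3, against 1.21%, 0.826% and 2.23% in brains 1, 2 and 3. Testis 2 lay within the range of the brains in number, and just above it in share of counts.

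Large differences were more frequent among gene models with many counts. The same 6 male samples set the mean levels, so a gene model that peaked in 1 testis could enter the highest group through that testis. Among the 2202 gene models with the highest mean level, 5.50%, 1.91% and 13.2% were at least 2-fold apart between testis and brain in the summed sample and both runs of males 1, 2 and 3. Among the 2202 with the lowest mean level the shares were 0.0908%, 0.227% and 0.772%. In the summed sample alone they were 6.68%, 2.68% and 16.0% among the highest and 0.409%, 0.363% and 1.82% among the lowest. The median log2 ratio of the highest 2202 was 0.08 in male 1, -0.01 in male 2 and 0.12 in male 3, and that of the lowest 2202 was -0.03, 0.01 and -0.14. These signs hold for TMM scaling.

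The variation of log2 level over the 12 male libraries was divided into parts for fish, tissue, fish by tissue and the difference between runs. Tissue, with 1 degree of freedom, held 17.4% of the sum of squares. Fish by tissue, the part by which fish disagreed on the tissue difference, held 31.0% with 2 degrees of freedom. Fish held 28.1%, and the runs 23.5% with 6 degrees of freedom. Per degree of freedom the tissue part was 1.12 times the fish by tissue part, and the fish by tissue part was 3.96 times the part between runs. These quotients were 1.13 and 13.0 in the most abundant 20% of gene models, and 1.11 and 1.53 in the least abundant 20%. Both groups were ranked on the same male samples. Over all gene models the tissue part was 0.798 times the fish by tissue part without male 1, 1.36 times without male 2 and 1.18 times without male 3.

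**Figure D4:**
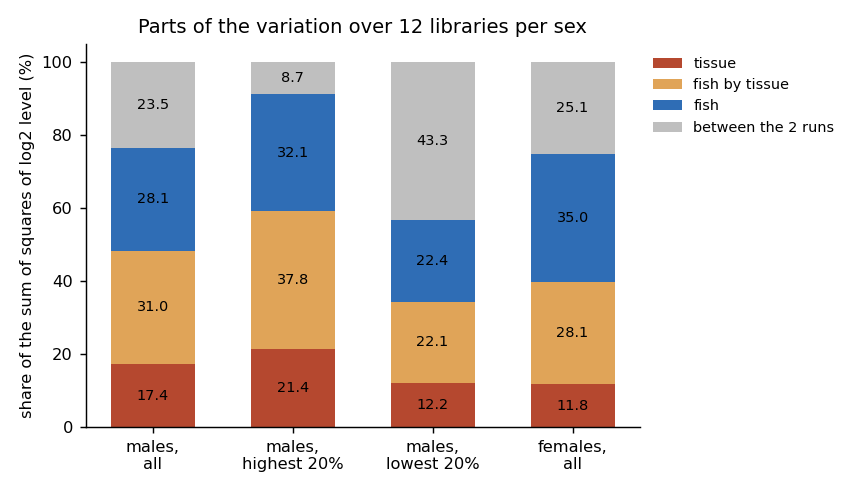
Share of the sum of squares of log2 level, in percent, that belonged to tissue, to fish by tissue, to fish and to the difference between the 2 runs, over 12 libraries per sex. Bars are for males with all gene models, with the 20% at the highest and the 20% at the lowest level, and for females. In males with all gene models the 4 parts were 17.4%, 31.0%, 28.1% and 23.5%.

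The testes placed more of their counts in the most abundant gene models than the brains of the same fish. The 220 gene models (1%) with the highest mean level over the male samples held 21.2%, 13.4% and 20.6% of counts in testes 1, 2 and 3, against 12.7%, 11.7% and 14.7% in brains 1, 2 and 3. The mean was 18.4 ± 4.33% in testis and 13.0 ± 1.53% in male brain (SD, n = 3 each). The mean difference of 5.36 percentage points was in the same direction in 3 of 3 fish, with a two-sided exact permutation p of 0.25 within fish, the smallest that 3 pairs can give, and it was 5.13 points without male 3. The 6 samples compared also ranked the gene models, so one that peaked in 1 testis could enter the 220 through that testis. Ranked on the female samples, the 220 held 20.9%, 12.8% and 20.3% of counts in testes 1, 2 and 3, against 12.2%, 11.1% and 14.2% in brains 1, 2 and 3, a mean difference of 5.51 points. Ranked on the male brains the difference was 3.84 points, higher in testis in 3 of 3 fish. In females the same 220 gene models held 21.9%, 25.5% and 21.2% of counts in ovaries 1, 2 and 3, against 17.3%, 23.5% and 22.5% in the brains of females 1, 2 and 3.

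The most abundant gene model of testis 1 was also the most abundant one of all 3 brains. It held 2.88% of counts in testis 1, against 1.40%, 0.696% and 2.72% in brains 1, 2 and 3. Testes 2 and 3 each had a different most abundant gene model, with 1.90% of counts in testis 2 and 2.86% in testis 3. Wilson 95% intervals of these shares, which cover counting error only, were 2.87 to 2.89% in testis 1, 1.89 to 1.91% in testis 2 and 2.85 to 2.87% in testis 3.

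The question whether the tissue difference of males differed from that of females was put to a test of the interaction over all 12 summed samples. The edgeR test called 0 of 22015 gene models (0%), the smallest adjusted p being 1, with 442 at an unadjusted p under 0.05 (2.01%). DESeq2 with the fish as a block called 1 and limma-voom 0. The unadjusted edgeR count was 239 without male 1, 1094 without female 1, 731 without female 3 and 378 without male 3. Between ovary and female brain the paired edgeR test called 0 of 22006 (0%), with 656 at an unadjusted p under 0.05 (2.98%), and the tissues did not overlap in 7.5% of gene models, 3.42% with higher and 4.09% with lower levels in ovary.

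Females too differed from fish to fish. At least 2-fold apart between ovary and brain in both runs were 330 gene models in female 1, 240 in female 2 and 343 in female 3, all 3 between the 214 of male 1 and the 710 of male 3. Of these, 288 were higher and 42 lower in the ovary of female 1, 102 higher and 138 lower in that of female 2, and 164 higher and 179 lower in that of female 3. In all 3 males the higher ones outnumbered the lower ones, and in females they did so in female 1. At 1.5-fold or more in every female, 3 gene models were higher and 10 lower in ovary. Of the 22016 gene models, 5710 (25.9%) had 1 sign in all 3 males and 4753 (21.6%) in all 3 females. The sign was the same in all 6 fish for 880 gene models, 428 higher and 452 lower in gonad. Another 421 had 1 sign in all 3 males and the other in all 3 females. Were the signs of the sexes unrelated, these 2 kinds would be about equal in number, and the first was the larger. The difference between them was not tested.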

How the data were processed

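The authors deposited whole-number read counts of every gene model in every library, not normalized. They aligned reads to another species' genome, that of the Asian arowana (Scleropages formosus), per the series design text. Bowtie is named in the submitters' processing notes. How reads were counted, the build, the annotation, and how strand and multiply mapped reads were treated is not given in the sources used here. Reads from sequence that differs between the species can be lost or placed on a related copy, so levels of different gene models and counts of near-identical copies are uncertain.

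The chi-square per degree of freedom between the 2 libraries of a male sample was 2.65 to 4.92. Between the summed samples of 2 males of 1 tissue it was 18.5 to 83.4. Summed samples hold more counts than single libraries, which raises this value, so the 2 ranges are not on the same scale. Libraries of 1 fish and tissue are not independent and were added up, so n = 3 fish per tissue. Male libraries held 4224382 to 6046524 counts. edgeR 4.0.16 in R 4.3.3 fitted fish and tissue on the 6 male samples, with TMM scaling, the expression filter (minimum count 10, minimum total count 15) and a quasi-likelihood F test adjusted by Benjamini-Hochberg over the 22015 gene models that passed, 1 being left out. The interaction used 12 samples with the fish as a block and a tissue effect for each sex. Fold changes are testis over brain. The 95% intervals use the SE from the F statistic, which 17 gene models with F at 0 lack, and the percentages inside a limit leave these out. DESeq2 1.42.0 and limma-voom 3.58.1 were alternatives, and adjusted p-values that DESeq2 left undefined, 6403 in the paired fit, stayed so. Per-fish ratios used log2(CPM + 0.5).

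Testis and brain with 1 number come from 1 fish, since the labels give 6 individuals with both tissues, which sets the pairing. The deviation of a testis from the testis mean and that of its brain from the brain mean correlated at r = -0.05 in male 1, 0.05 in male 2 and -0.14 in male 3, over gene models. With a brain of another fish r was -0.14 to 0.15, and in each male the highest of the 3 values was with another fish's brain. Values of gene models by identifier are not reported here. The comparison, the lists and the tests were chosen with earlier results of these data known. The scripts were tested on simulated counts in which all fish had the same tissue difference. Fish that disagree on the tissue difference were not simulated, so that test does not show what can be detected in these data.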

Additional observations from a re-analysis of the deposited data

How the results depend on the processing

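In edgeR the count of gene models called between testis and male brain was 0 under other scalings, filters, thresholds, single runs, a robust dispersion, all 12 samples in one fit and without each male. Without the pairing by fish as a replicate block it was 0 too, with 973 at an unadjusted p under 0.05. Paired DESeq2 called 22, and DESeq2 with no replicate block 36. Without each male in turn paired DESeq2, refitted after seeing the data, called 4 to 90 (35 without male 3). With each library as a replicate, which treats the 2 libraries of a fish as independent, edgeR called 63. At an unadjusted p under 0.05 there were 2000 with total counts alone, 478 in paired DESeq2, 1151 in DESeq2 with no replicate block, 3332 with each library as a replicate and 290 to 1150 without each male. The interaction had 1 DESeq2 call, and its unadjusted count was 267 in DESeq2 and 239 to 1094 without each fish. The number of gene models at least 1.5-fold on 1 side in every male, 23, was 43 to 189 without each male, where fewer fish had to meet the limit, and 19 to 25 with a pseudocount of 2, total counts or single runs, all added after seeing the data. The median log2 fold change was -0.17 with total counts alone. The difference in the share of the most abundant gene models was 3.78 to 7.19 percentage points over 12 alternatives. Some of these could not have changed its sign. Without the replicate block the mean difference is the same by construction. Since the difference was positive in every male, it had to stay positive without each male in turn. Of the 12, 4 were other rankings added after seeing the data, and only the ranking on the female samples left out the samples compared. The ranking on the testes (6.09 points) favours testis by how it was made. The 12 alternatives share the same fish and are no independent evidence. Why these counts moved was not tested. The gene lists were not run. With 3 fish a difference that varies between fish can be missed, so 0 edgeR calls do not show that the tissues are alike. With no marker to test the tissue labels, the counts also do not show that the organs' known differences were measured.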
